A study of Drosophila melanogaster with 2 samples.

Results

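Among the binding sites of the GAGA factor in Drosophila melanogaster Kc cells, 418 peaks were 1000 bp wide or more, of 3787 peaks on the 5 large arms (2L and 2R, 3L and 3R, and X) and 3842 in the whole list. These broad peaks were chosen by their width alone, measured as the end minus the start of each peak in the deposited list. The 3369 peaks under 1000 bp on the same arms are called narrower peaks below. The sites came from 1 sample of chromatin immunoprecipitation followed by sequencing (ChIP-seq), made with the antibody KW3-Trl-D2 from untreated Kc cells. The control was 1 sample of input chromatin from the same line, and no peak list of it was analysed here. Kc is an established line of embryonic origin. The growth notes in the labels describe egg collection from flies, so the culture of these cells is not given in the sources used here. Both samples were crosslinked in 1.8% formaldehyde for 15 minutes and sonicated for 15 minutes.

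The GAGA factor is the product of Trl (Trithorax-like). It binds GA-rich repeats through a zinc finger, and its BTB domain lets it form oligomers that can hold neighbouring sites at once. It is known for keeping promoters free of nucleosomes, for supporting paused polymerase at heat shock genes, and for acting at Polycomb response elements. A peak is a stretch in which ChIP reads exceed the control, and its width depends both on how many sites lie close together and on how the peak caller draws its borders. Coordinates are 1-based positions in the BDGP5 assembly. No sequence or gene annotation of that assembly was used, so no base sequence is printed and no gene is assigned to a peak. For the same reason the antibody's target could not be checked against GA-rich sequence under the peaks.

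There was 1 list and no replicate, so every value below is a description of that list and no difference was tested. The 95% intervals are exact Clopper-Pearson intervals. They cover counting error only and are too narrow where peaks lie in groups, since neighbouring peaks are not independent. The number of reads behind each peak is unknown.

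Broad peaks made up 11.0% of the peaks on the 5 arms and 24.1% of the bases under them, 559 kb of 2323 kb. The median broad peak measured 1228 bp (quartiles 1096 and 1479 bp), against 493 bp (quartiles 380 and 653 bp) for narrower peaks. The number of members fell off with width. From 1000 to under 1200 bp there were 195 peaks (46.7% of the broad ones), from 1200 to under 1500 bp 123, from 1500 to under 2000 bp 74, and from 2000 to under 2500 bp 20. Only 6 were 2500 bp or wider. The width limit did not fall in a gap of the distribution: 59 peaks were 950 to under 1000 bp wide and 58 were 1000 to under 1050 bp wide. The 3 members just inside it were 1000 bp wide, at 2L:16715902-16716901 with a score of 3120, at 3L:9117950-9118949 with a score of 3100 and at 2L:3631841-3632840 with a score of 1870. Just outside lay 2 peaks of 999 bp on 3L, both with a score of 3100, and 1 of 998 bp on X with a score of 1095.

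The score of a peak is the number the authors' peak caller gave it. The list does not state its scale, and scores are ranked below as deposited. Since many peaks share a score of exactly 3100, a score above that value was not taken to mark a stronger peak than the shared one. The median score was 2563 for broad peaks, with quartiles at 1377 and 3100, against 299 for narrower peaks, with quartiles at 107 and 937. Width and score come from the same calls on the same reads, so this gap is not independent of the rule that chose the peaks. The score of 3100 was held by 150 broad peaks (35.9%, 31.3 to 40.7%) and by 116 narrower ones (3.44%, 2.85 to 4.12%). Scores above it were held by 13 broad peaks (3.11%, 1.67 to 5.26%) and 15 narrower ones (0.445%, 0.249 to 0.733%). Among the broad peaks themselves, the median score was 1808 from 1000 to under 1200 bp and 2712 from 1200 to under 1500 bp, and it stood at 3100 in both classes between 1500 and 2500 bp. In the class from 2000 to under 2500 bp, 18 of 20 peaks had the score of 3100. The 6 peaks of 2500 bp or more had a lower median, 2982, and 3 of them had the score of 3100. Within the 418 broad peaks, Spearman's rho between width and score was 0.36, and it was 0.26 over the 255 that scored under 3100.

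**Figure D1:**
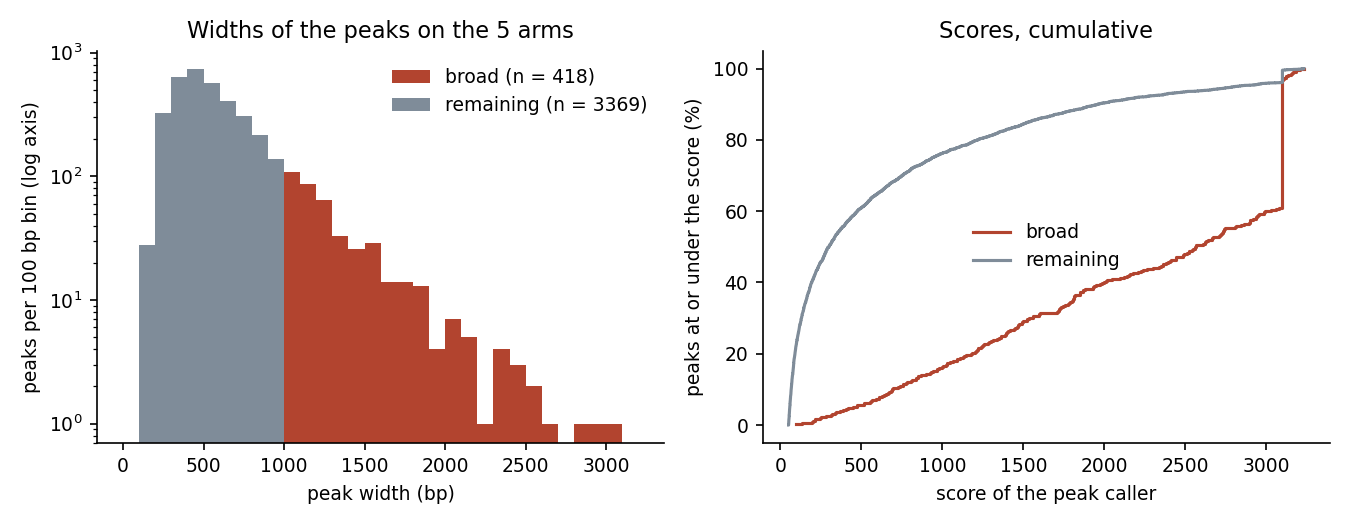
Left, the number of peaks per 100 bp of width (log axis) for 418 broad and 3369 narrower peaks, which the legend calls remaining. Right, the cumulative share of each class by score; the vertical step at 3100 holds 35.9% of the broad peaks and 3.44% of the narrower ones.

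Some broad peaks had low scores. A score under 500 was found in 24 of them (5.74%, 3.71 to 8.42%), against 2052 narrower peaks (60.9%). The 3 lowest, singled out after their values were seen, scored 95.25 at X:2192466-2193866, 132 at 2R:10106557-10107657 and 190 at 2R:17598927-17599935. The first of these is 1401 bp wide and sits inside the largest group of broad peaks, described below. The widest peak of all spans 3086 bp at 2L:478707-481792, scored 1448, and had no other peak within 2 kb.

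The 10 widest peaks ran from 2376 to 3086 bp, and 5 of them lay on X. Next after the peak on 2L came 2983 bp at X:7588882-7591864 with a score of 3100 and 2873 bp at X:2194492-2197364 with a score of 2488. The widest on 2R was 2602 bp long at 2R:14243007-14245608, on 3L 2428 bp at 3L:14749159-14751586, and on 3R 2412 bp at 3R:25039692-25042103, each with a score of 3100. Of these 10 peaks, 6 had another peak within 250 bp, and the other 4 had their nearest neighbour between 3.57 and 8.17 kb away. By the deposited number alone, the broad peak with the highest score on its arm was in most cases not one of these. It was a peak of 1164 bp at 3L:17562676-17563839 with a score of 3233, one of 1731 bp at X:11607587-11609317 with 3206, one of 1283 bp at 2L:21827975-21829257 with 3184, and one of 1541 bp at 3R:4805681-4807221 with 3160. On 2R no broad peak scored above 3100, and 29 shared that score, the widest peak of the arm among them. Since a score above 3100 was not taken as stronger, the widest peaks scored 3100 are not ranked below those with higher numbers.

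Broad peaks were spread over the 5 arms much as the narrower ones were. X carried the most per Mb, with 96 broad peaks or 4.29 per Mb of the arm up to its last peak. Next came 3R with 3.80 per Mb (106 peaks), 2R with 3.60 (76) and 3L with 3.41 (79), and 2L had the fewest, with 2.67 (61). Broad peaks were thus 1.27 times as dense on X as on the autosomal arms pooled (3.39 per Mb), with an interval from 0.999 to 1.60. For narrower peaks the same ratio was 1.22, from 33.6 per Mb on X and 27.5 per Mb on the autosomal arms. Without 1 group of 8 broad peaks on X, described below, the ratio for broad peaks was 1.16.

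Counted as a share of each arm's own peaks, broad peaks made up 12.3% for 3R (interval 10.2 to 14.7%), 11.3% for X (9.29 to 13.7%), 10.8% for 2R (8.60 to 13.3%), 10.6% for 3L (8.49 to 13.0%) and 9.67% for 2L (7.48 to 12.2%). All 5 intervals overlap and hold the 11.0% of the arms together, a value that includes each arm's own peaks. Differences between arms were not tested. Median widths of the broad peaks lay between 1181 bp on 2L and 1248 bp on 2R. Their median scores lay between 2047 on 2L and 2737 on 2R. On 2L 17 of 61 broad peaks (27.9%) had the score of 3100, and on the other arms between 35.4% and 38.2% had it. Peaks of 2000 bp or more numbered 7 each on X and 2R, 6 on 3R and 3 each on 3L and 2L.

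**Figure D2:**
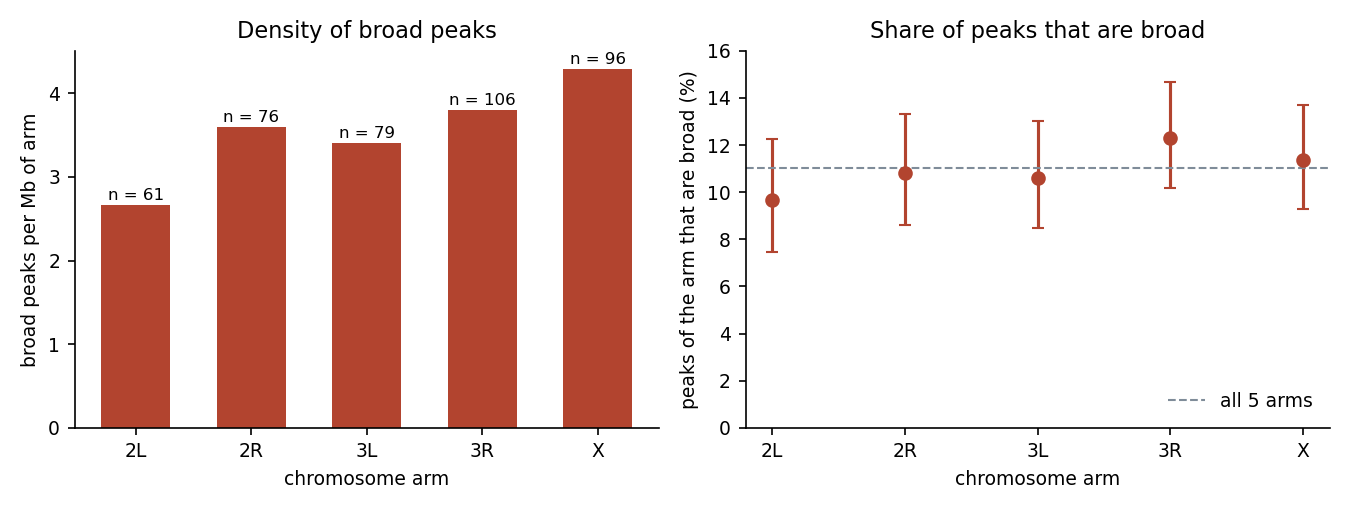
Left, broad peaks per Mb of each chromosome arm, with the number of peaks above each bar. Right, the percentage of each arm's peaks that are broad, with exact 95% intervals; the dashed line marks the 11.0% of the 5 arms together, and every interval crosses it.

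Having a close neighbour of any kind was about as frequent for broad peaks as for narrower ones. Measured from edge to edge, 246 of 418 broad peaks (58.9%, 54.0 to 63.6%) and 1836 of 3369 narrower peaks (54.5%, 52.8 to 56.2%) had another peak within 2 kb, and the share over all peaks of the arms was 55.0%. The median gap to the nearest peak was 1.10 kb for broad peaks and 1.37 kb for narrower peaks. Edge gaps favour wide peaks, because a wide peak reaches further towards its neighbours. Centre distances count against them, because a peak's own width is part of the distance. The shortest centre distance to any peak was 680.5 bp for broad and 244.5 bp for narrower peaks. Neither measure is thus free of the width that chose the peaks. Measured between centres, the order was turned round, with 46.7% of broad peaks and 49.6% of narrower peaks within 2 kb of another, and the median distances were 2.18 and 2.05 kb. The edge difference of 4.35 percentage points was 1.06 points without the peaks scored 3100. At longer range broad peaks were the closer ones on both measures: 81.3% of broad and 74.2% of narrower peaks had another peak within 10 kb from edge to edge, and 79.4% and 73.8% had one between centres.

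Measured from edge to edge, broad peaks somewhat less often had a narrower peak at short range than narrower peaks did. At longer range they somewhat more often had one. Within 1 kb the edge shares were 36.6% (32.0 to 41.4%) for broad and 41.6% (40.0 to 43.3%) for narrower peaks. The median edge gap to the nearest other narrower peak was 2.12 kb for broad peaks and 1.87 kb for narrower peaks, and 204 broad peaks (48.8%, 43.9 to 53.7%) and 1708 narrower peaks (50.7%, 49.0 to 52.4%) had one within 2 kb. Within 10 kb the shares were 73.9% (69.4 to 78.1%) and 71.7% (70.1 to 73.2%), within 20 kb they were 85.9% and 81.8%, and the upper quartiles of the gap were 10.7 kb for broad and 13.0 kb for narrower peaks. Between centres, where a peak's own width is part of the distance, broad peaks also less often had a narrower peak close by. Within 2 kb the centre shares were 38.0% (33.4 to 42.9%) for broad and 46.4% (44.7 to 48.1%) for narrower peaks. The median centre distances were 3.07 and 2.42 kb. Within 10 kb the centre shares were 72.0% and 71.2%, and within 20 kb they were 84.7% and 81.6%. Within 5 kb of its centre a broad peak had 1.17 narrower peaks on average, and a narrower peak had 1.09 others. Within 100 kb these averages were 8.71 and 8.39.

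Broad peaks lay closer to each other than narrower peaks lay to them. Another broad peak within 10 kb was present for 139 broad peaks (33.3%, 28.8 to 38.0%) and for 630 narrower peaks (18.7%, 17.4 to 20.1%), and for 20.3% of all peaks on the arms. Within 250 bp the shares were 10.8% (7.96 to 14.1%) and 2.49% (1.99 to 3.08%). The median gap to the nearest other broad peak was 44.2 kb for broad peaks and 76.1 kb for narrower peaks. Within 5 kb of its centre a broad peak had 0.311 other broad peaks on average, and a narrower peak had 0.146 broad peaks. Within 20 kb these averages were 0.708 and 0.363, and within 100 kb they were 1.31 and 1.08.

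The proximity of broad peaks to each other differed in size between score quartiles, a difference that was not tested. In the highest quartile of scores, 115 of 319 broad peaks (36.1%, 30.8 to 41.6%) and 140 of 628 narrower peaks (22.3%, 19.1 to 25.8%) had another broad peak within 10 kb. In the third quartile the shares were close, at 18 of 81 broad peaks (22.2%, 13.7 to 32.8%) and 173 of 865 narrower peaks (20%, 17.4 to 22.8%). In the second quartile 5 of 17 broad peaks (29.4%, 10.3 to 56.0%) and 151 of 930 narrower peaks (16.2%, 13.9 to 18.8%) had one, and the lowest quartile held 1 broad peak. The difference over all peaks was 14.6 percentage points. Without the peaks scored 3100 it was 4.41 points, from lower shares of 17.5% and 13.1%. That setting left out 150 of 418 broad peaks and 116 of 3369 narrower ones, so fewer broad peaks remained to lie near. Once peaks under 500 bp apart were merged, the difference was 9.33 points, from 34.4% and 25%. Merging removed the gaps under 500 bp and gave another set of 754 broad peaks. Which peaks the proximity belongs to was not tested in either setting. With only peaks of 1500 bp or more counted as broad, the difference was 7.33 points, from lower shares of 14% and 6.67%. By width, another broad peak within 10 kb was present for 27.7% of members under 1200 bp and 30.9% from 1200 to under 1500 bp. The share was 44.6% from 1500 to under 2000 bp (33.0 to 56.6%). It was 50% from 2000 to under 2500 bp (27.2 to 72.8%) and 66.7% of the 6 widest (22.3 to 95.7%). By arm, the share of broad peaks with another within 10 kb ran from 27.8% on 3L (18.3 to 39.1%) to 40.6% on X (30.7 to 51.1%), and it was above that of narrower peaks on each of the 5 arms. For narrower peaks it ran from 15.1% on 2L to 21.3% on X. The X share of broad peaks stands for 39 of 96, and 8 of the 39 lay in 1 group, described below.

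**Figure D3:**
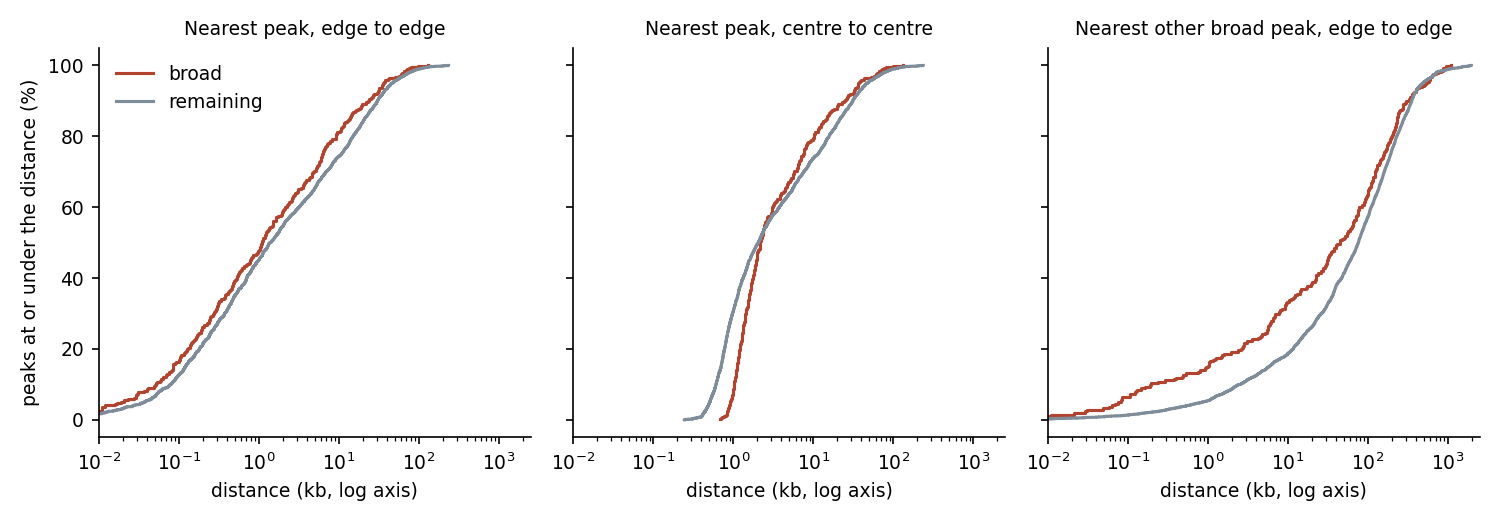
Cumulative share of broad and narrower (remaining) peaks by distance in kb on a log axis, to the nearest peak from edge to edge, to the nearest peak between centres, and to the nearest other broad peak from edge to edge. The curves of the first panel run close together, those of the second cross near 2 kb, and in the third broad peaks lead, with 33.3% against 18.7% at 10 kb.

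The peak that comes next along the arm shows the same pattern at finer scale. Of the flanking peaks less than 250 bp from a broad peak, 48 of 135 (35.6%, 27.5 to 44.2%) were themselves broad, against 87 of 883 (9.85%, 7.97 to 12.0%) of those beside a narrower peak. At gaps of 0.5 to 2 kb the shares were 17.2% (11.1 to 24.9%) beside broad and 11.4% (9.41 to 13.6%) beside narrower peaks. At gaps of 10 to 50 kb the order was the other way, with 6.51% (3.60 to 10.7%) and 10.3% (8.97 to 11.7%). A gap between 2 broad peaks enters from both of its sides here, so the intervals beside broad peaks are narrower than they should be. For peaks that were themselves in the highest score quartile, the shares under 250 bp were 37.8% beside broad peaks and 12.7% beside narrower ones. Without the group of 8 broad peaks on X, the share under 250 bp was 31.5% (23.5 to 40.3%).

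There were 65 places on the arms where a broad peak directly followed another. The gap was under 2 kb at 40 of these (61.5%) and under 500 bp at 29. The median gap was 0.79 kb. A broad peak and a narrower one stood side by side 705 times, with a median gap of 6.61 kb and 33.6% of gaps under 2 kb. For 2 narrower peaks these values were 3012, 8.77 kb and 33.2%. The closest broad pair was separated by 2 bp, with its left member at 3R:27549635-27551085, and the next by 4 bp, with its left member at X:7599624-7600629. A peak caller can divide 1 enriched stretch into several calls, and the part of this in the short gaps was not tested.

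**Figure D4:**
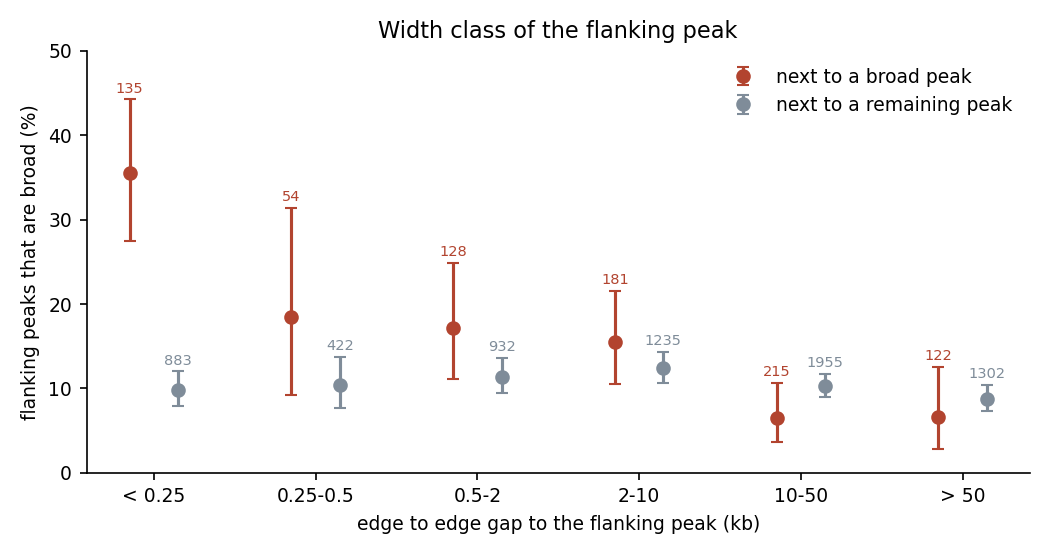
Percentage of flanking peaks that are broad, by the edge gap in kb, beside broad peaks and beside narrower (remaining) peaks, with exact 95% intervals and the number of flanking peaks above each. Beside broad peaks the share is 35.6% at gaps under 250 bp and 6.51% at 10 to 50 kb; beside narrower peaks it stays between 8.76% and 12.4%.

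Peaks were joined into runs wherever the gap was under 2 kb, which gave 2510 runs, a single peak counting as a run of 1. A broad peak was present in 367 runs. Alone in their run were 172 broad peaks (41.1%), 156 (37.3%) shared it with narrower peaks only, and 90 (21.5%) shared it with another broad peak. Among narrower peaks, 1533 (45.5%) were alone in their run and 356 (10.6%) shared it with a broad peak. Longer runs held a broad peak more often: 10.1% of single peaks were broad, and a broad peak was present in 17.5% of runs of 2, 27.5% of runs of 3, 44.8% of runs of 4 and 62.5% of the 40 runs of 5 or more. Part of that climb follows from the number of peaks alone. Counted per peak, the broad share was 9.42% in runs of 2, 12.2% in runs of 3, 14.6% in runs of 4 and 18.3% in runs of 5 or more. The last class held 44 broad peaks among 240, and 8 of the 44 came from 1 run on X, described below, whose peaks are all broad.

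Broad peaks that shared a run with another broad peak had a median score of 3100, against 2563 for those among narrower peaks only and 2361 for those alone. Their median widths were close, at 1242, 1187 and 1237 bp. Narrower peaks in a run with a broad peak had medians of 564 bp for width and 399 for score, against 501 bp and 356 for narrower peaks in other runs of 2 or more, and 467 bp and 234 for narrower peaks that stood alone. Where a run of 3 or more peaks held 1 broad peak, that peak lay between the others in 28 of 72 runs (38.9%, 27.6 to 51.1%), and 47.4% of the places in these runs are inner ones. The broad peak of a run was therefore not seen to take the middle place.

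Of the 39 runs with 2 or more broad peaks, 32 held 2, 6 held 3 and 1 held 8. The last lies at X:2186477-2200950, and every one of its 8 peaks is broad. Its peaks cover 12.7 kb of its 14.5 kb. In order along the arm they are 1651, 1001, 1647, 1096, 1401, 2873, 1113 and 1889 bp wide. Their scores in the same order are 3100, 1005, 2238, 2403, 95.25, 2488, 1493 and 2541. The gaps between them run from 29 to 625 bp. The fifth peak, with the lowest score of all broad peaks, thus stands between neighbours that score 2403 and 2488.

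Among the 6 runs with 3 broad peaks, the most completely covered lies at 3L:14747751-14753763. It consists of 3 broad peaks of 1277, 2428 and 2072 bp, all scored 3100, which cover 96.1% of 6.01 kb with gaps of 131 and 105 bp. The run at X:7584698-7593146 has 3 broad and 3 narrower peaks over 8.45 kb and contains the widest peak of X. That at 3R:7583971-7590485 has broad peaks of 1530 and 2352 bp, both scored 3100 and 21 bp apart, then a narrower peak of 370 bp scored 71.5 and a broad one of 1332 bp scored 1351. The runs at 2L:5977136-5983694 and 3R:4878091-4883964 hold 3 broad peaks among 5 and 4 peaks. At 3L:22827976-22833523 the 3 broad peaks are close in width, at 1229, 1236 and 1144 bp, and differ in score, at 3100, 1975 and 475.

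**Figure D5:**
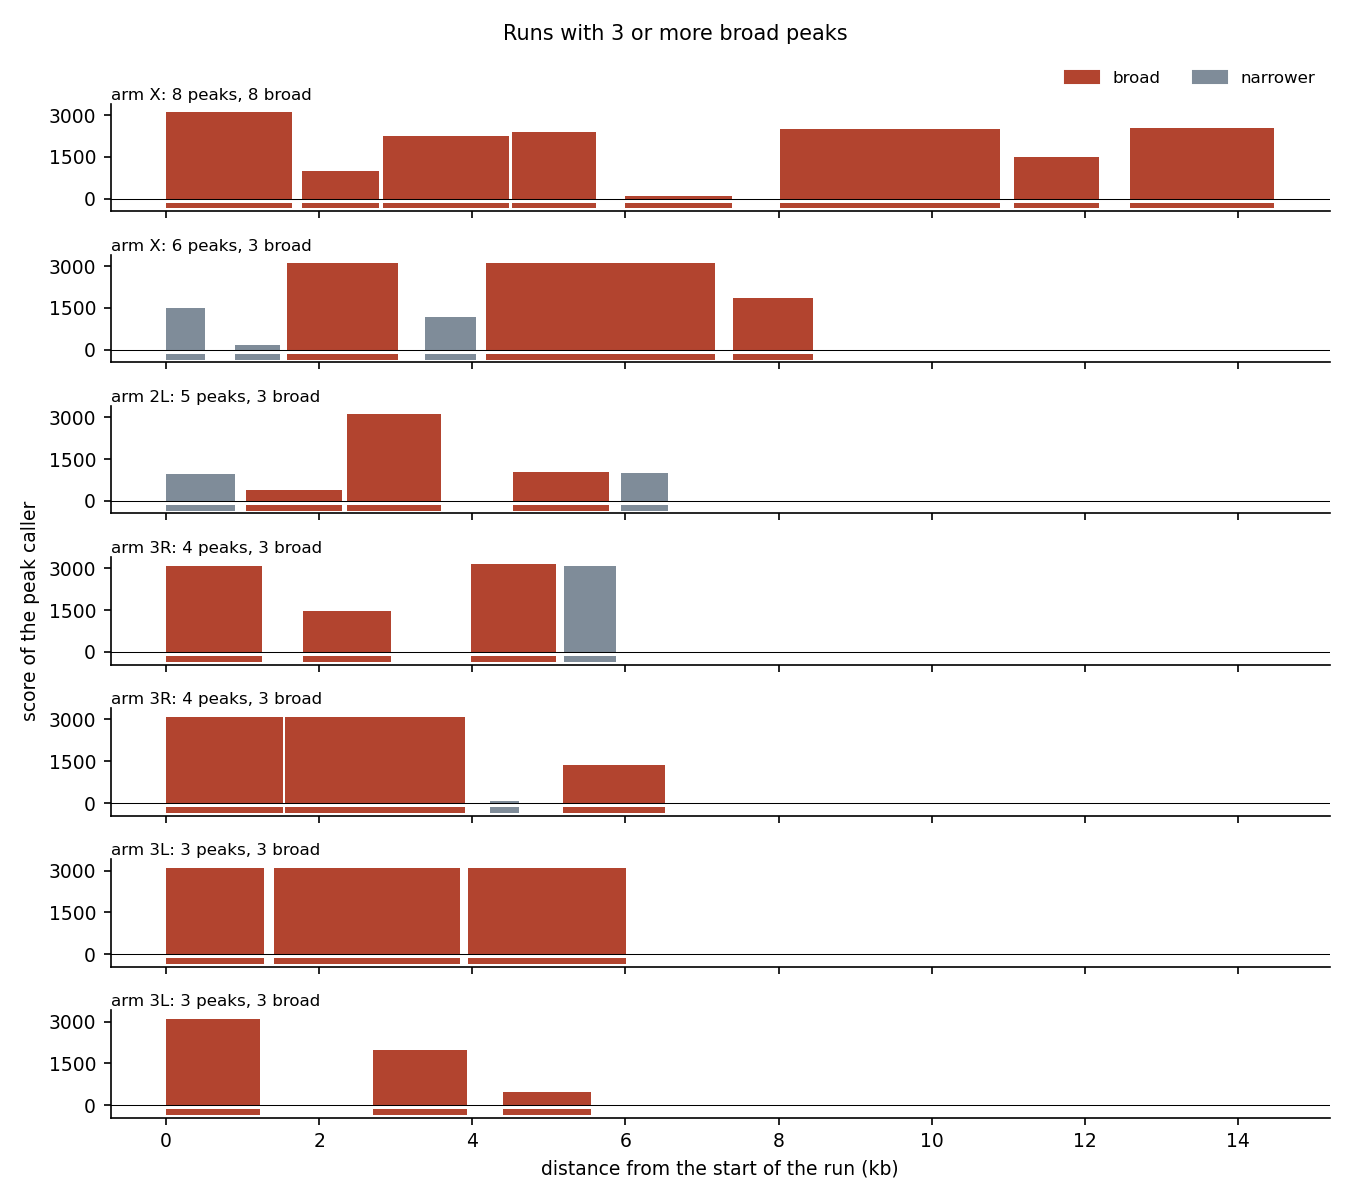
The 7 runs with 3 or more broad peaks, drawn to scale by distance in kb from the start of each run; bar width is peak width, bar height is the score, and the strip below each axis marks the span of every peak, also of those with low scores. The top run, on X, is made of 8 broad peaks over 14.5 kb.

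At the other end, the 5 most isolated broad peaks had their nearest neighbour at least 70.9 kb away. The first of them was 1135 bp wide at 3R:5530237-5531371, scored 846, and its nearest peak was 131 kb away. It was followed by 3R:736117-737137 (score 684, 98.2 kb), X:3843188-3844348 (score 369, 80.2 kb), 3L:270719-272045 (score 1253, 75.6 kb) and X:16226532-16228012 (score 3100, 70.9 kb). With the exception of the last, these isolated peaks scored below the median of 2563 for broad peaks.

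In windows of 100 kb, 296 of 1176 windows (25.2%) held a broad peak and 949 (80.7%) held any peak. Only 25 windows held 3 or more broad peaks, and these contained 87 broad peaks (20.8%). The window on X from 2100001 to 2200000 held 7 broad peaks among 9 peaks, and all 7 belong to the run of 8 described above. That on 3L from 22800001 to 22900000 held 5 among 7, including the 3 of a run described above. On 2R the window from 6400001 to 6500000 held 4 broad peaks among 21. The longest stretch without a broad peak was 3.12 Mb on 3R, from 737138 to 3852587, and it contained 65 narrower peaks. It was followed by 2.21 Mb on 2L from 9238441 to 11445426 with 39 narrower peaks, and by 2.07 Mb on the same arm from 16716902 to 18782408 with 36.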

How the data were processed

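Reads were aligned with Bowtie to BDGP5, per the submitters' processing notes, and MACS made the peak calls, per the file headers. For both tools the versions and settings were not stated in these sources, nor were the handling of duplicate reads and any pooling of libraries. The deposited list gives each peak a position and a score whose scale is not stated. The score was used only within this list.

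Width was the end minus the start of each peak, and broad meant 1000 bp or more. Gaps are bases between neighbouring edges, and the arm length is the end of its last peak. Shares carry exact 95% Clopper-Pearson intervals. That for X over the autosomal arms is the same interval on the share of broad peaks that lie on X. With 1 ChIP sample no test was made. Python 3.11.15, NumPy 2.4.6, SciPy 1.17.1, pandas 2.3.3 and Matplotlib 3.10.9 were used. The functions for width, edge gaps, local counts, merging and runs of 2 broad peaks returned the planted answers in 20 of 20 simulated lists. Centre distances, gaps to narrower peaks and longer runs were not part of that check.

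The broad peaks, comparisons and named regions were chosen with earlier results of these data known. The regions named are the 10 widest broad peaks, the widest and the highest scored on each arm, those in the runs with the most broad peaks, the 5 most isolated and the 3 on each side of the width limit. The lowest scored peaks, closest pairs, windows and stretches were named after their values were seen. Alternatives varied the width limit, merging, score, gap limit, distance measure and arms.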

Additional observations from a re-analysis of the deposited data

How the results depend on the processing

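The number of broad peaks, 418, was 770 with a limit of 800 bp, 223 with 1200 bp and 100 with 1500 bp, 754 once peaks under 500 bp apart were merged, and 268 without the peaks scored 3100. The share with another peak within 2 kb, broad minus narrower, was 4.35 percentage points from edge to edge. It was -2.92 points between centres, the one change of direction among the alternatives of this result, and 9.27 points with a limit of 1500 bp. The share with another broad peak within 10 kb exceeded that of narrower peaks by 14.6 points, and by 7.33 points with 1500 bp, 9.33 after merging and 4.41 without the score of 3100. With 1500 bp both shares were lower, at 14% and 6.67%, and without the score of 3100 they were 17.5% and 13.1%. After merging, which gave another set of peaks, they were 34.4% and 25%. The cause of these shifts was not tested. The median score of broad peaks exceeded that of narrower peaks by 2265, and by 1759, 2767 and 2739 with limits of 800, 1200 and 1500 bp, 1515 after merging, 2044 at scores of 100 or more and 1438 without the score of 3100. The ratio of broad peaks on X to those on the autosomal arms was above 1 in all 8 alternatives, but each interval included 1. The lowest was 1.04 (0.816 to 1.31), for the share of an arm's peaks that are broad. The highest was 1.49 per Mb (0.917 to 2.36), with 1500 bp. For narrower peaks the ratio per Mb was 1.22. Leaving out the run of 8 broad peaks on X was chosen after seeing the data. The share of broad peaks alone in their run is 100% minus the share with a peak within 2 kb, so its alternatives are not given again. Gene and sequence comparisons were not run. No paired analysis was possible because there was a single ChIP sample, and for that reason no sample was left out. Read depth is unknown, which limits what the low scores can show.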

Other observations

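Outside the 5 arms, chromosome 4 and the scaffolds carried 55 peaks, of which 1 was 1000 bp wide or more. It lies on chromosome 4 from 527783 to 528827, is 1045 bp wide and scored 1237. In the 2 Mb nearest the centromere of each arm, counted back from the last peak on 2L, 3L and X, 21 of 203 peaks were broad (10.3%, 6.52 to 15.4%), against 397 of 3584 (11.1%, 10.1 to 12.2%) in the rest of the arms.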
